A study of Rattus norvegicus with 10 samples.

Results

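The genes described here were the TGF-beta ligands Tgfb1, Tgfb2 and Tgfb3, the latent TGF-beta binding proteins Ltbp1 and Ltbp2, the receptors Tgfbr1 and Tgfbr2, the inhibitory Smad gene Smad7 and the induced gene Ctgf, whose current symbol is Ccn2. They were chosen by name, as every probe set whose deposited gene symbol was one of these 9 names, which gave 16 of 43686 probe sets. These probe sets measure 9 of the 19049 genes on the array, and 27502 probe sets carry a gene symbol. The samples were whole lateral gastrocnemius, a calf muscle, from the left leg of male Sprague-Dawley rats, an outbred laboratory stock. There were 5 animals in the aged group and 5 in the young group, with 1 single-colour expression array for each. Aged animals are labelled as 24 months and reached 28 months at necropsy, and young animals are labelled as 6 months and reached 7 months. Animals of both groups ate and drank freely, and the labels name no treatment or genetic alteration for either. The study is on sarcopenia, in which muscle is lost with age. Only males and only 1 muscle were sampled.

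TGF-beta is a secreted signal that is made as an inactive complex. Each ligand stays bound to its own propeptide, the complex is tied to a latent TGF-beta binding protein and stored in the extracellular matrix, and integrins or proteases set the ligand free. Free ligand joins the receptors Tgfbr2 and Tgfbr1, which phosphorylate Smad2 and Smad3, and these enter the nucleus with Smad4 and alter transcription. Smad7 is induced by the pathway and blocks its receptors, and Ctgf encodes a matrix-associated protein that TGF-beta and mechanical load induce. In skeletal muscle the pathway is known for fibrosis and for restraining myogenic differentiation.

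Aged muscle carried more transcript for a latency protein and for both ligands Tgfb1 and Tgfb2, and less for the inhibitor Smad7. Ltbp1 rose 5.87-fold, Tgfb1 2.54-fold and Tgfb2 2.15-fold, and Smad7 fell 1.32-fold, each on its brightest probe set and with n = 5 per group. The third ligand Tgfb3, the latency protein Ltbp2, both receptors and Ctgf did not pass the test. Of the 16 probe sets, 7 were higher and 1 was lower in aged muscle with limma (adjusted p under 0.05), and 8 did not pass. Of all probe sets on the array, 15.0% passed, 8.09% higher and 6.87% lower. Many of these are dim, and among the 21843 left after a filter on dim probe sets a larger share passed, 3551 higher and 2801 lower. With that filter 8 probe sets of the 9 genes were higher and 1 was lower. In 8 of the 16 probe sets the aged and young values did not overlap, against 11.7% of all probe sets. Taken by gene on the brightest probe set, 3 of the 9 rose, 1 fell and 5 did not pass, where 22.5% of all 19049 genes passed, 13.8% higher and 8.70% lower. The median log2 fold change was 0.06 over the 9 genes and -0.01 over all genes. The genes were named with earlier results of these arrays known, so these counts describe the 9 genes and are not evidence about the pathway.

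**Figure D1:**
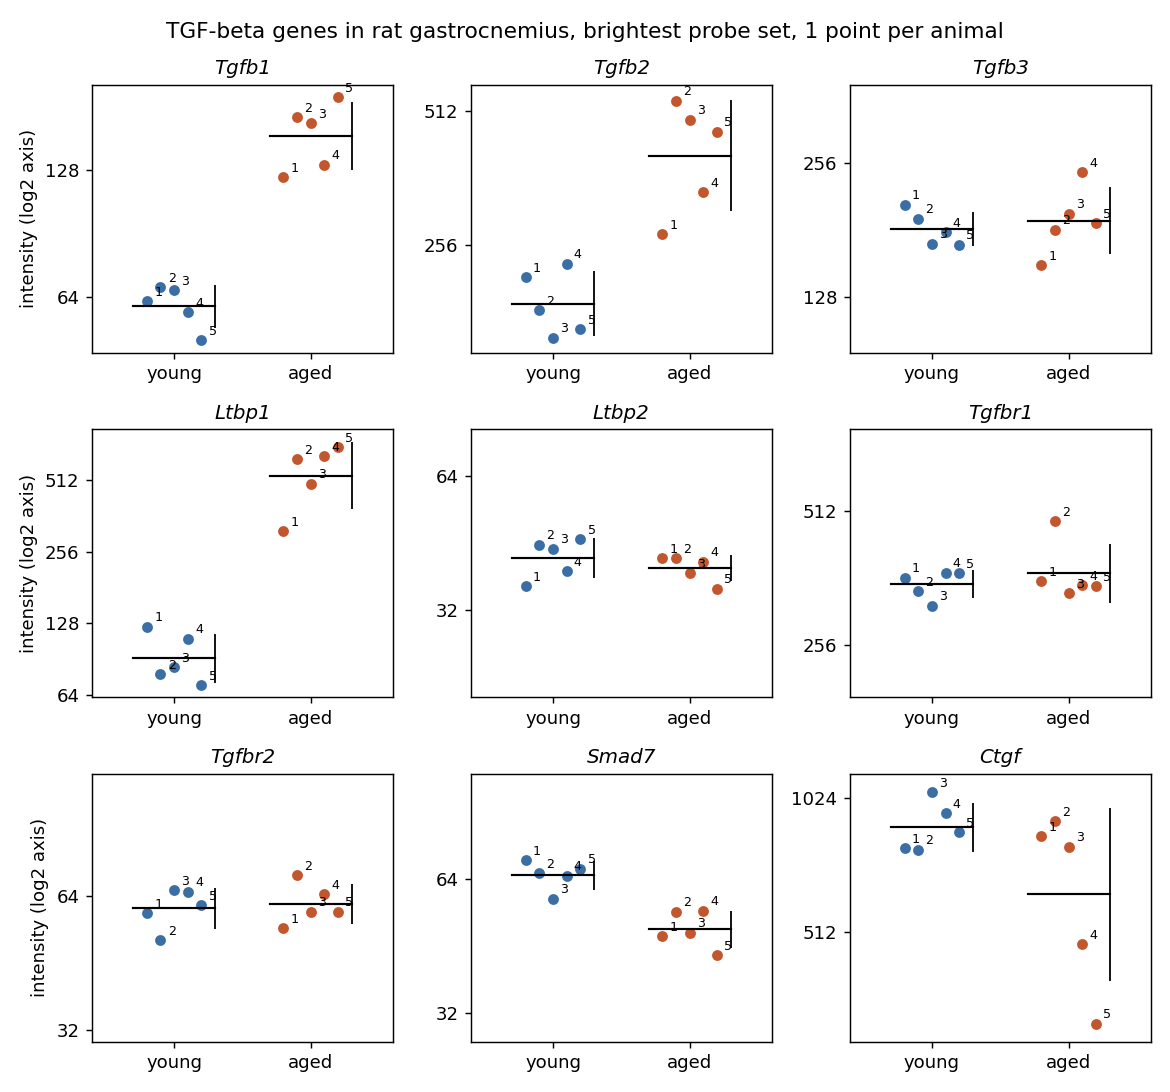
Intensity of the brightest probe set of each of the 9 genes (log2 axis, a separate scale in each panel), 1 point per animal with its replicate number, blue for young and orange for aged; horizontal bars are geometric means and vertical lines 1 SD of the log2 values, n = 5 per group. The groups do not overlap for Tgfb1, Tgfb2, Ltbp1 and Smad7, and aged animals 4 and 5 lie below all other animals for Ctgf.

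Array medians were 13.46 to 13.74 in the aged group and 13.79 to 13.99 in the young group, and Pearson's r of log2 intensity, taken across probe sets for each pair of arrays, was 0.977 at its lowest and 0.995 at its highest. In all, 3535 probe sets rose and 3001 fell, with 3973 and 2330 after each array was centred on its median. Quantile normalization turned this balance, with 3057 higher and 3334 lower. On the first principal component aged replicate 1 lay at 7.80, between the young arrays (-42.9 to -27.2) and the other aged ones (34.7 to 46.8), and values without it are given where they bear on a result. A pair of aged arrays, replicates 4 and 5, bear the name replacement in a deposited table, and what was replaced is not given in the sources used here. The label of the tissue was checked on 10 fibre genes, such as the creatine kinase gene Ckm, whose summed intensity ranged from 168820 to 177065 in aged and from 171070 to 177080 in young animals. This sum includes probe sets near 25989, the highest intensity in the data, such as Ckm at 24326 to 24380 in young animals. Such a sum can hide changes of single genes. Of the 10 genes, the fast myosin gene Myh1 fell 1.77-fold on its brightest probe set (limma adjusted p = 0.00122), while its 3 others did not pass. The myoglobin gene Mb rose 1.16-fold (limma adjusted p = 0.0365). The dimmest of 3 probe sets of the fast myosin gene Myh4 fell 1.35-fold and passed (limma adjusted p = 0.0251), and its brighter ones did not.

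The sequence before the start of each gene is given for the genes that rose and, for comparison, for Ltbp2 and Ctgf, which did not pass. These are the 250 bases upstream of the annotated start, read 5′ to 3′ on the gene's strand, from RefSeq on the rat assembly GRCr8, and all 9 genes had an entry. Capitals mark CAGAC, the core bound by Smad proteins, and GGAATG, the core bound by TEAD factors, each searched on both strands, so that a match on the other strand reads GTCTG or CATTCC. No marked match overlaps another. The windows of Tgfb3, Tgfbr1, Tgfbr2 and Smad7 held no match to either core and are not printed. Tgfb1 lies at chr1:90324062-90324311 on the plus strand, Tgfb2 at chr13:100792686-100792935, Ltbp1 at chr6:26177302-26177551, Ltbp2 at chr6:110257299-110257548 and Ctgf at chr1:22624615-22624864, all on the minus strand.
Tgfb1: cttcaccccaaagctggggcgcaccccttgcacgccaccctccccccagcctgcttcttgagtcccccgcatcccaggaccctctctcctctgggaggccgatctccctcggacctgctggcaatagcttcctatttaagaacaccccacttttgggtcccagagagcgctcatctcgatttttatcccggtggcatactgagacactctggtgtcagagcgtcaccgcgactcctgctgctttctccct
Tgfb2: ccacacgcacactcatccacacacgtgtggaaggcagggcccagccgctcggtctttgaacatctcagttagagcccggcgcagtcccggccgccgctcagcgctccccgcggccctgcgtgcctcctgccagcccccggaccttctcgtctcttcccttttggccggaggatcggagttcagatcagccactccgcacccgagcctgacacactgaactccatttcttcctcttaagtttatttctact
Ltbp1: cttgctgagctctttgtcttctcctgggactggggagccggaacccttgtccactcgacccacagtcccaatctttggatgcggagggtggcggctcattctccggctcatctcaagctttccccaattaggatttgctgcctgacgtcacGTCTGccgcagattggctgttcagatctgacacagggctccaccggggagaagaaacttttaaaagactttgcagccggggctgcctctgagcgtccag
Ltbp2: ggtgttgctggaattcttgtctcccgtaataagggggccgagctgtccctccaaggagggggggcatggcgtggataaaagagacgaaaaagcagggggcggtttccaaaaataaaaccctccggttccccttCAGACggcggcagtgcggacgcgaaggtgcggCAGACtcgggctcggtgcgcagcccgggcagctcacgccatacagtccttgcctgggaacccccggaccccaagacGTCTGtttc
Ctgf: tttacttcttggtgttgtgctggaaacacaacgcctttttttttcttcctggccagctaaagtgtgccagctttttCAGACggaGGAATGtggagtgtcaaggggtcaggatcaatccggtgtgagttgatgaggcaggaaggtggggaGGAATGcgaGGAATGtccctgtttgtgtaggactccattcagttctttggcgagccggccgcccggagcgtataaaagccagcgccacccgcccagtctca

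Of the 9 windows 3 held CAGAC on either strand, namely those of Ltbp1, Ltbp2 and Ctgf, with 5 matches in all, while 42.9% of 33469 annotated windows of this length held it. The core GGAATG was found in 1 of the 9, that of Ctgf, and in 12.1% of all windows. Ctgf held it 3 times, as did or exceeded 0.0807% of all windows. The AP-1 site TGACTCA and the E-box CAGCTG, a site of myogenic factors, were found in none of the 9, against 4.05% and 12.0% of all windows. A match is a description of letters and was not tested for binding. The windows of Tgfb1 and Tgfb2, the ligands that rose, held none of these motifs.

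Among the ligands, Tgfb1, the form made by most tissues and by macrophages, was higher in every aged animal than in any young one. Its intensity was 62.5, 67.4, 66.3, 58.8 and 50.4 in young replicates 1 to 5 and 123, 171, 165, 132 and 191 in aged replicates 1 to 5. Aged replicates 1 and 4 were the lowest of their group, and all 5 aged values lay above the highest young one. The mean log2 intensity was 5.92 ± 0.17 (SD, n = 5) in young and 7.27 ± 0.27 (SD, n = 5) in aged muscle, a log2 fold change of 1.34 ± 0.12 (SE, limma adjusted p = 3.94e-05). Tgfb1 had 1 probe set by deposited symbol, so its change rests on that probe set.

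Tgfb2, a ligand known for roles in development, was measured by 5 probe sets, and 4 of them rose. On the brightest, the values were 217, 183, 159, 233 and 166 in young and 271, 540.3, 490.2, 337 and 461 in aged replicates 1 to 5. The groups did not overlap, but aged replicate 1 lay close to the highest young animal, replicate 4. The log2 fold change of this probe set was 1.10 ± 0.18 (SE, limma adjusted p = 0.00113). The other 3 that rose changed 1.57-fold, 1.94-fold and 2.25-fold, with adjusted p of 0.0140, 0.00130 and 0.00230. The dimmest read 16.2 to 20.6 in young and 18.0 to 27.2 in aged animals, ranges that overlap, and its log2 fold change of 0.35 ± 0.11 did not pass (limma adjusted p = 0.0575). It passed in several other settings, with an adjusted p of 0.0125 without aged replicate 4. With the mean over all 5 probe sets Tgfb2 was 1.80-fold higher (limma adjusted p = 0.00281).

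The 5 probe sets of Tgfb2 ordered the animals similarly but not identically. The lowest young value, from the brightest probe set to the dimmest, belonged to replicates 3, 5, 5, 5 and 2. In all 5 the highest young value belonged to replicate 1 or 4, the highest aged value to replicate 2 or 3 and the lowest aged value to replicate 1 or 4. The probe sets share their RNA and their gene and are repeat measurements, not replicates. The spread among aged animals in Tgfb2 was thus seen in each of its probe sets.

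**Figure D2:**
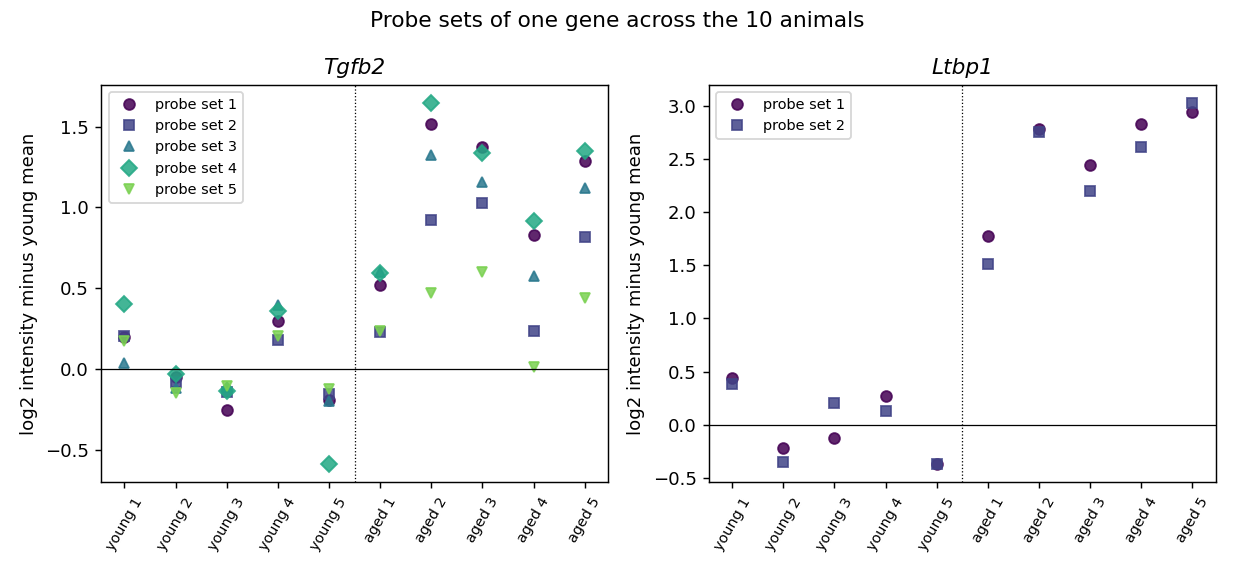
Log2 intensity minus the young mean of the same probe set (vertical axis) in each of the 10 animals (horizontal axis, young left of the dotted line) for the 5 probe sets of Tgfb2 and the 2 of Ltbp1, 1 being the brightest. Aged replicates 1 and 4 are the lowest aged animals for Tgfb2, while for Ltbp1 aged replicate 4 lies with the high ones.

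Tgfb3, the third ligand, known from palate and mesenchyme, read 207, 192, 169, 179 and 168 in young and 151, 182, 197, 245 and 188 in aged replicates 1 to 5. Its aged values spread on both sides of the young ones, with replicate 1 the lowest and replicate 4 the highest of all 10 animals. The log2 fold change was 0.06 ± 0.11 (SE, limma adjusted p = 0.784), with a 95% interval from -0.18 to 0.30. Its sign turned under quantile normalization (-0.03), without aged replicate 4 (-0.03) and without the replacement arrays (-0.06).

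Whether the ligands changed unequally was tested on the difference of their log2 intensities within each array, in an exact two-sided permutation test. It was 1 of 7 such pairs of genes, with p adjusted over the 7 and a smallest possible raw p of 0.00794. Tgfb1 rose by 1.28 ± 0.17 (SE) more than Tgfb3 on the log2 scale (exact permutation p = 0.00794, adjusted p = 0.0139), and Tgfb2 by 1.04 ± 0.22 more than Tgfb3 (exact permutation p = 0.00794, adjusted p = 0.0139). In both pairs the aged and young differences did not overlap. Tgfb1 and Tgfb2 differed by 0.24 ± 0.16 in their change, which did not pass (exact permutation p = 0.175, adjusted p = 0.244). When the probe sets of each gene were averaged, this difference was 0.50 and passed (exact permutation, adjusted p = 0.0139).

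Of the latency proteins, Ltbp1, which ties the latent complex to the matrix and presents it for release, had the largest change of the 9 genes. Its brightest probe set read 124, 78.4, 83.9, 110 and 70.6 in young and 313, 627, 495, 647 and 703 in aged replicates 1 to 5. Aged replicate 1 was the lowest aged animal and lay well above young replicate 1, the highest young one. The mean log2 intensity rose from 6.51 ± 0.34 (SD, n = 5) to 9.07 ± 0.47 (SD, n = 5), a log2 fold change of 2.55 ± 0.21 (SE, limma adjusted p = 2.36e-05). Its second probe set read 19.6 to 33.1 in young and 72.3 to 206 in aged animals and rose 5.35-fold (limma adjusted p = 5.89e-05), with aged replicate 1 lowest and aged replicate 5 highest again.

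Ltbp2, a related matrix protein that is found on elastic microfibrils, read 36.2, 44.9, 44.0, 39.0 and 46.2 in young and 41.8, 41.8, 38.6, 41.1 and 35.7 in aged replicates 1 to 5. The groups overlapped, and its log2 fold change of -0.08 ± 0.08 (SE, limma adjusted p = 0.608) had a 95% interval from -0.25 to 0.10. The change of Ltbp1 exceeded that of Ltbp2 by 2.63 ± 0.32 on the log2 scale (exact permutation p = 0.00794, adjusted p = 0.0139 over the 7 pairs).

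Neither receptor passed. Tgfbr1, the signalling receptor kinase, read 362, 337, 313, 371 and 370.2 in young and 355, 486, 335, 349 and 346 in aged replicates 1 to 5. Aged replicate 2 stood alone above all other animals, and the other aged values lay within the young range. The log2 fold change was 0.08 ± 0.10 (SE, limma adjusted p = 0.660, 95% interval -0.14 to 0.30). Its second, dim probe set read 13.7 to 16.8 in young and 12.4 to 16.9 in aged animals (limma adjusted p = 0.686). Tgfbr2, the receptor that binds ligand first, read 58.4, 50.8, 65.9, 65.3 and 61.0 in young and 54.2, 71.2, 59.0, 64.5 and 59.0 in aged replicates 1 to 5, and the groups overlapped. Its log2 fold change was 0.03 ± 0.09 (SE, limma adjusted p = 0.873, 95% interval -0.17 to 0.23). Both signs turned without aged replicate 2 (-0.02 for each), and that of Tgfbr2 also turned under quantile normalization (-0.04) and without young replicate 2 (-0.03). The difference in change between the receptors was 0.05 ± 0.10 (exact permutation p = 0.651, adjusted p = 0.730).

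Smad7, the inhibitor that the pathway induces against itself, was lower in every aged animal. It read 70.4, 65.8, 57.7, 65.0 and 67.3 in young and 47.5, 53.9, 48.4, 54.3 and 43.1 in aged replicates 1 to 5. The highest aged value, in replicate 4, lay just under the lowest young value, in replicate 3, so the groups were apart by a narrow gap. The log2 fold change was -0.40 ± 0.08 (SE, limma adjusted p = 0.00497), and the 95% interval ran from a fall of 1.17-fold to a fall of 1.49-fold. Its second probe set read between 5.81 and 8.88 in all animals, with both group means below the lowest array median, and did not pass (log2 fold change -0.17 ± 0.10, limma adjusted p = 0.280). No measure of detection came with the values.

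Ctgf, widely used as a readout of the pathway, did not pass. It read 790.0, 784, 1056, 946 and 856 in young and 839.5, 907, 796, 479.8 and 318 in aged replicates 1 to 5. Aged replicates 1 to 3 lay within the young range, and aged replicates 4 and 5, the arrays named as replacements, lay below every other animal. The log2 fold change was -0.50 ± 0.24 (SE, limma adjusted p = 0.197) with all arrays and -0.06 (limma adjusted p = 0.810) without these 2 arrays. The log2 SD was 0.18 in young and 0.65 in aged animals. What sets the replacement arrays apart from the others was not tested.

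Leaving out the replacement arrays ended no call among the 4 genes that passed. Without the replacement arrays Ltbp1 was 5.03-fold (limma adjusted p = 0.000194), Tgfb1 2.49-fold (adjusted p = 0.000194) and Tgfb2 2.20-fold higher (adjusted p = 0.00573), and Smad7 1.31-fold lower (adjusted p = 0.0166). Within arrays, the change of Tgfb1 exceeded that of Ctgf by 1.85 ± 0.37 on the log2 scale (exact permutation p = 0.00794, adjusted p = 0.0139). Without the replacement arrays this difference was 1.37 (exact permutation, adjusted p = 0.0625). With so few animals the raw p of this test cannot be smaller. For Smad7 against Ctgf the difference was 0.10 ± 0.29 (exact permutation p = 0.730, adjusted p = 0.730).

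**Figure D3:**
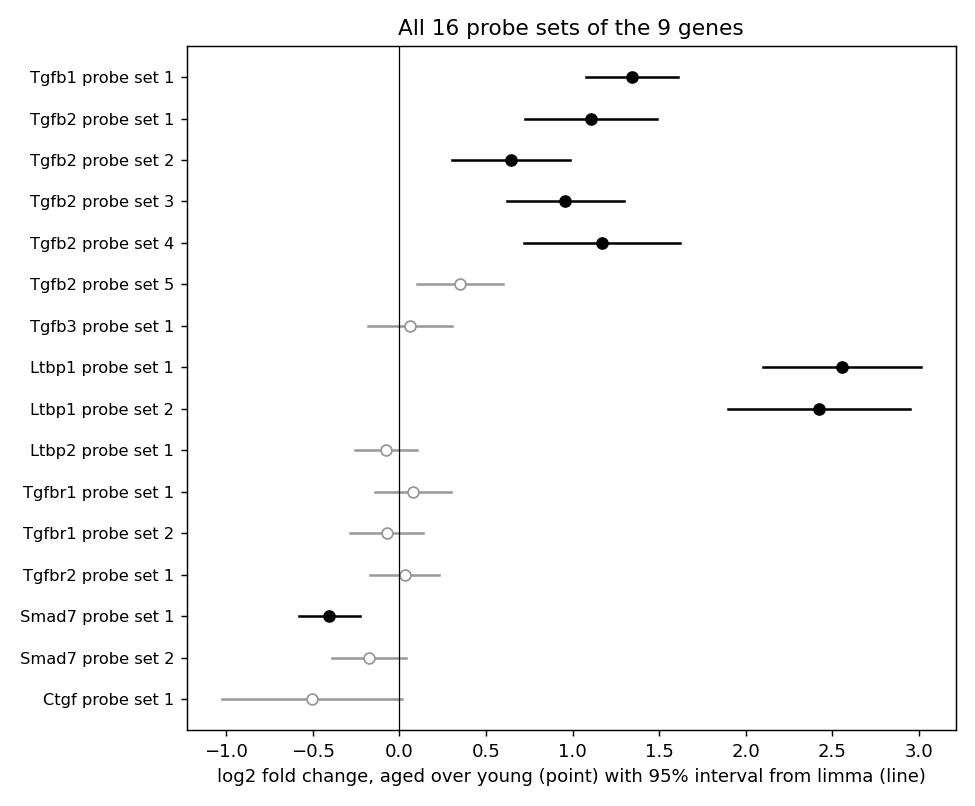
Log2 fold change of aged over young muscle (horizontal axis) for all 16 probe sets, points with 95% intervals from limma, filled black where the adjusted p passed and open grey where it did not, n = 5 per group. The 2 probe sets of Ltbp1 lie farthest from 0, at 2.55 and 2.42, and those of Tgfbr1, Tgfbr2, Tgfb3 and Ltbp2 lie across 0.

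Aged replicate 1 was the least changed aged animal for the genes that rose. In 6 of the 7 probe sets that rose it had the lowest aged value, and in the remaining one, a probe set of Tgfb2, aged replicate 4 was slightly lower. On the log2 scale its shift from the young mean was 1.78 for Ltbp1, 1.02 for Tgfb1 and 0.52 for Tgfb2. Without it the changes were 6.71-fold, 2.69-fold and 2.38-fold, all called, and the fall of Smad7 was 1.31-fold (limma adjusted p = 0.00841).

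Markers of some other cell types moved with age beside these genes. For comparison with each marker list, 22.5% of all genes passed on the brightest probe set, 13.8% higher and 8.70% lower. Of 11 macrophage markers 6 rose and 0 fell, on the brightest probe sets, namely Cd68, Csf1r, Adgre1, C1qa, C1qb and C1qc, and the list's summed intensity was 1933 to 3042 in aged and 791 to 1716 in young animals. Macrophages are a known source of Tgfb1. Aged replicate 1 had the highest macrophage sum of all animals and the lowest Tgfb1, Tgfb2 and Ltbp1 of the aged ones on the brightest probe sets. This is 1 animal, and a link between macrophages and these genes was not tested. Of 8 fibroblast markers 2 rose, Dpt and Pi16, and the sums overlapped, at 4354 to 5799 in aged and 3631 to 5696 in young animals. Of 8 smooth muscle and pericyte markers 3 fell on the brightest probe sets, Cnn1, Rgs5 and Notch3, and their sums were lower in every aged animal, at 457 to 637 against 639.6 to 684. The second probe sets of Csf1r, Cnn1 and Notch3 did not pass. Some dimmer probe sets passed where the brightest did not. Probe set 2 by brightness was 1.62-fold higher for Cd163 and 2.10-fold for Mrc1 (limma adjusted p = 0.0183 and 0.00560). Probe set 2 of Myh11 was 1.32-fold lower (limma adjusted p = 0.00306). Probe sets 2 and 3 of Mylk were 1.45-fold and 1.36-fold lower (limma adjusted p = 0.0287 and 0.00264). No other dimmer probe set of the macrophage or smooth muscle list passed. Fat cell sums were 2218 to 3970 in aged and 1646 to 2060.5 in young animals, with 1 of 6 markers called, Cfd. Of these 6 markers, 4 had an unadjusted p under 0.05 in limma's test.

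Sums of endothelial markers overlapped between the groups, at 1095 to 2009 in aged and 1322 to 1666 in young animals. Of 9 markers 1 fell, Esam, and 4 had an unadjusted p under 0.05 in limma's test, in both directions. Of 4 measured platelet markers 1 rose, Pf4, and their sums overlapped, at 134 to 172 in aged and 103 to 135 in young animals. Of 7 Schwann cell markers 0 passed in limma's test on the brightest probe sets, and 1 had an unadjusted p under 0.05. Their sums were 558 to 1449 in aged and 619.8 to 1217 in young animals. The second probe set of S100b was 1.67-fold higher in aged muscle and passed (limma adjusted p = 0.0474). No other further probe set of the Schwann cell list passed. Of 6 T cell markers 0 passed and 0 had an unadjusted p under 0.05, with sums of 126 to 187 in aged and 119.7 to 151 in young animals, and 3 of them had a group mean below the lowest array median. The part of these cells in the changes of Tgfb1, Tgfb2, Ltbp1 and Smad7 was not tested. In whole muscle, more cells of a kind and more RNA per cell cannot be told apart.

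**Figure D4:**
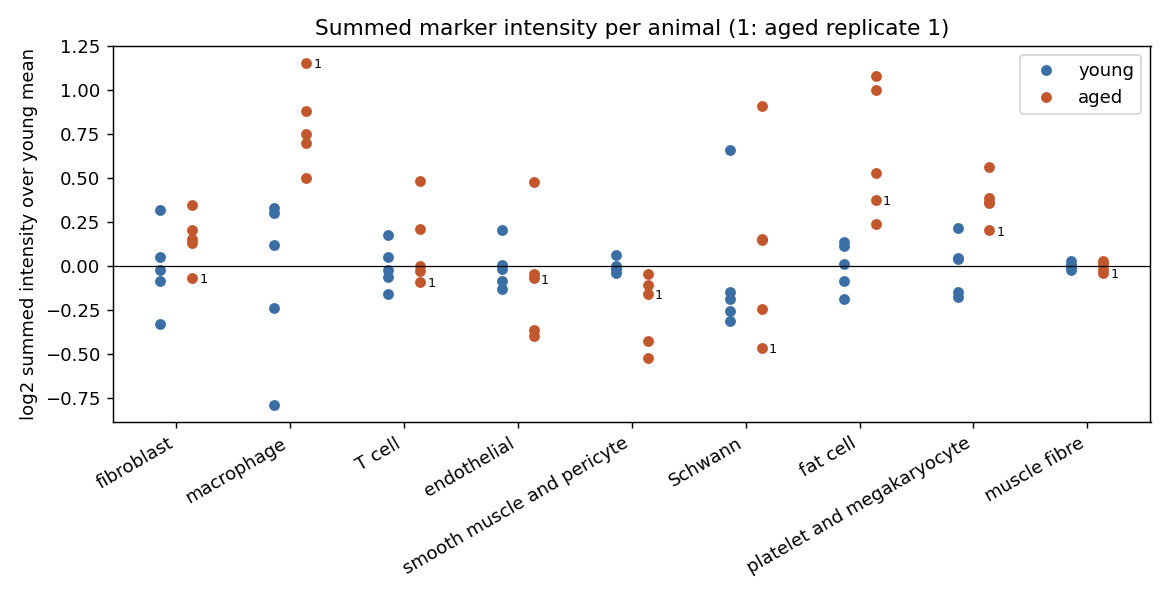
Log2 of the summed intensity of each cell type's markers over the mean young sum (vertical axis) for 9 marker lists, 1 point per animal, blue for young and orange for aged, with aged replicate 1 marked. The macrophage and fat cell sums are higher and the smooth muscle sums lower in every aged animal than in any young one, and the muscle fibre sums overlap.

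Beyond the 9 genes, 78 others of the pathway were listed by role, and 75 of these were measured. Of these, 19 rose, 10 fell and 46 did not pass, on the brightest probe set of each gene, beside the 13.8% higher and 8.70% lower of all genes. Without young replicate 5, 12 rose. The median log2 fold change over the 75 genes was 0.06. These lists too were chosen with earlier results of these data known, so their counts describe the listed genes and are not evidence about the pathway.

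Of 17 measured genes that hold or release latent TGF-beta, 1 rose and 16 did not pass, with a median log2 fold change of -0.06. Of all genes, 22.5% passed, 13.8% higher and 8.70% lower, and these shares also stand beside the lists that follow. Mmp14, a membrane protease that can release latent TGF-beta, rose 1.97-fold (limma adjusted p = 0.0186), from 94.1 to 169 in young to 143 to 434 in aged animals, ranges that overlap. The integrin genes Itgb6 and Itgb1, which encode subunits of receptors that bind matrix, were the brightest that did not pass, at log2 fold changes of -0.11 and 0.31. Among 10 binders and coreceptors, 1 rose, 1 fell and 8 did not pass. Both that passed are small proteoglycans that bind TGF-beta, with biglycan, Bgn, 1.81-fold higher (limma adjusted p = 0.00107) and fibromodulin, Fmod, 1.88-fold lower (limma adjusted p = 0.0198). Decorin, Dcn, a proteoglycan of the same family, had a log2 fold change of 0.07 and the receptor-binding protein gene Fkbp1a one of 0.15, and neither passed.

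Among 22 Smads and their regulators, 4 rose, 3 fell and 15 did not pass. Tgif1, a repressor that acts on Smad complexes, rose 3.36-fold (limma adjusted p = 0.000102), from 94.8 to 173 in young to 362 to 745 in aged animals. Pmepa1, which TGF-beta induces and which holds Smad2 and Smad3 from the receptor, rose 2.72-fold (limma adjusted p = 0.00140). Map3k7, the kinase of the Smad-independent branch, rose 2.08-fold, while Tab2, an adaptor of that kinase, fell 1.72-fold. Smad2, a receptor-activated Smad, rose 1.21-fold (limma adjusted p = 0.0388). Ppm1a, a phosphatase of Smads, fell 1.55-fold and Usp15, a deubiquitinase that acts on receptors, 1.42-fold. Smad4, the common partner, and the repressor gene Ski did not pass, at log2 fold changes of 0.21 and -0.04.

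Of 21 measured genes listed as induced by TGF-beta, 12 rose, 5 fell and 4 did not pass, with a median log2 fold change of 0.44. Whether TGF-beta induces each of them in this muscle was not tested. Of all genes, 13.8% rose and 8.70% fell. Since the list was chosen with earlier results known, its counts are not evidence of a pathway response. Without young replicate 3 or young replicate 5, 7 rose. With all animals, the 12 rose between 1.30-fold and 3.88-fold. Periostin, Postn, a matrix protein of remodelling tissue, rose most, from 71.8 to 182 in young to 356 to 1015 in aged animals (limma adjusted p = 0.000620). This rests on 1 of its 3 probe sets, since the others, with both group means below the lowest array median, had log2 fold changes of 0.10 and 0.02 and did not pass. Junb, a transcription factor, rose 2.10-fold, Plod2, a collagen-modifying enzyme, 1.86-fold, and Timp1, an inhibitor of matrix proteases, 1.84-fold.

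Among the induced genes that fell, Id1, an inhibitor of basic helix-loop-helix factors, fell 1.58-fold (limma adjusted p = 0.00177), the collagen gene Col1a2 1.43-fold and the smooth muscle gene Tagln 1.42-fold. Smooth muscle marker sums were lower in aged animals, as given above, and their part in the fall of Tagln was not tested. Fibronectin, Fn1, and the collagen gene Col1a1 did not pass on their brightest probe sets, at log2 fold changes of 0.54 and -0.44. The second probe set of Col1a1 was 1.59-fold lower in aged muscle and passed (limma adjusted p = 0.0176).

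In the CCN family, to which Ctgf belongs, 1 of the 5 other members rose, 1 fell and 3 did not pass. Wisp2 rose 1.63-fold (limma adjusted p = 0.00423), and Nov fell 1.77-fold (limma adjusted p = 0.00681). The second, dim probe set of Nov had a log2 fold change of -0.31 and did not pass (limma adjusted p = 0.0517). Cyr61, like Ctgf a gene that responds to mechanical load, had a log2 fold change of 0.10 ± 0.20 and Wisp3 one of -0.13, and neither passed.

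**Figure D5:**
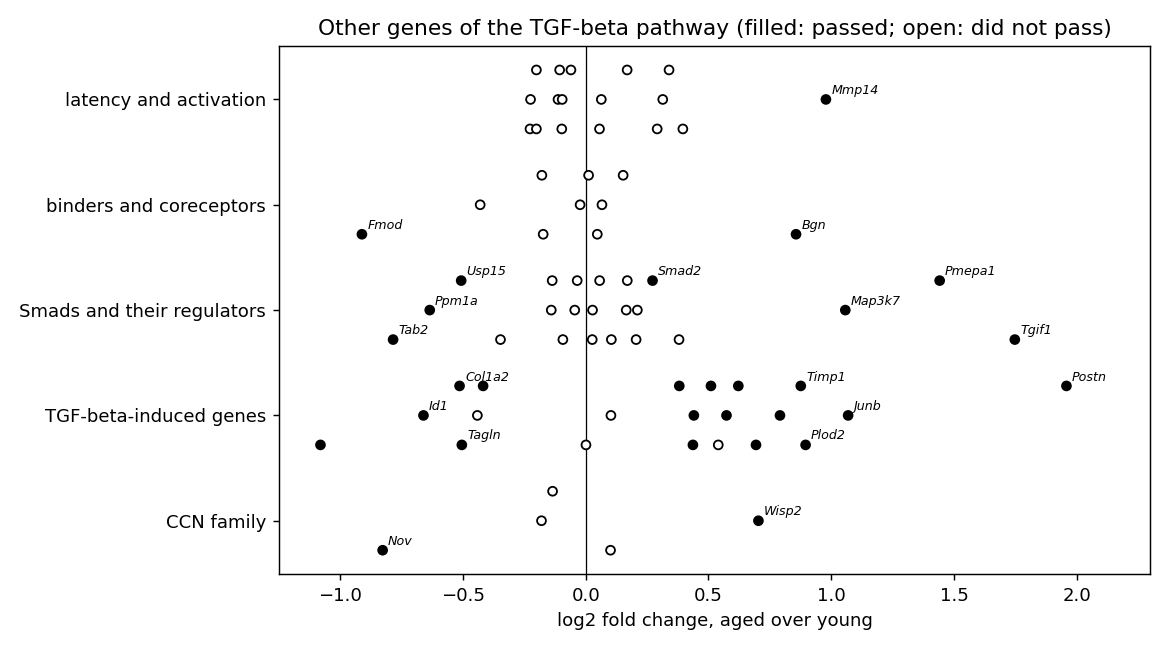
Log2 fold change of aged over young muscle (horizontal axis) for 75 other genes of the pathway by role, 1 point per gene on its brightest probe set, filled where the adjusted p passed and open where it did not; vertical offsets within a role carry no value. Of the TGF-beta-induced genes 17 of 21 are filled, on both sides of 0, and of the latency and activation genes 1 of 17. Of all genes 22.5% passed. The lists were chosen with earlier results of these data known, so the counts describe the listed genes alone.

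The genes whose level followed the 3 largest changes most closely were found by the root mean square, over the 10 arrays, of the difference between the log2 shifts of both genes from their young means. Closest to Ltbp1 were Acsl3 (0.22), Snx10 (0.25) and Chi3l1 (0.25). Closest to Tgfb1 were Lmna (0.08), LOC499339 (0.10) and B2m (0.11), and to Tgfb2 Filip1 (0.13), Pla1a (0.14) and Sync (0.16). Lmna encodes the nuclear lamins A and C, B2m the light chain of MHC class I, and Acsl3 an enzyme that activates fatty acids. All 9 changed between 2.00-fold and 5.81-fold in the same direction as the gene they followed, which this measure of likeness asks for.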

How the data were processed

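Per the labels' protocols, total RNA was biotin-labelled and hybridised to arrays. The authors deposited 1 linear intensity per probe set and animal, made with RMA per the submitters' processing notes, which give no settings; array design and genome build are not given in the sources used here. RMA understates fold changes of dim probe sets. A table with symbols, whose columns give the age group alone, served the tests, and a second with the same values for 43685 probe sets and replicate labels gave values per animal and the fits without single arrays. Log2 intensities of all 43686 probe sets, without pseudocount or filter, were fitted with limma 3.58.1 (R 4.3.3, two-sided) on age group, with Benjamini-Hochberg adjustment over all and a threshold of 0.05; the fit was also tested on simulated data. The brightest probe set stood for a gene. Folds are ratios of geometric means. Pathway genes named are the 4 largest changes per list and direction that passed and the 2 brightest that did not; for likeness, the 3 closest genes to the 3 largest changes. A result that this rule names is not reported here. Genes, lists and tests were chosen with earlier results of these data known. Alternatives were 2 scalings, a pseudocount of 16, a filter on dim probe sets, other variance models, array weights, the mean over probe sets, a replicate block and leaving out arrays. The number of arrays limits the precision.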

Additional observations from a re-analysis of the deposited data

Results flagged for a closer look

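In 1 of the 32 sets of 5 animals tested, 16 probe sets in both groups, 1 animal stood far from the others. For the brighter probe set of Tgfbr1, aged replicate 2 read 486, and the nearest of the other aged animals read 355. Chance alone would single out about 1 set in 20.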

How the results depend on the processing

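Each of the 9 genes kept its side of the threshold under all alternatives in which it was tested, and the count of genes that rose (3) and fell (1) did not move. Log2 fold changes ranged from 2.33 to 2.75 for Ltbp1, 1.15 to 1.43 for Tgfb1, 0.85 to 1.25 for Tgfb2 and -0.47 to -0.29 for Smad7, with a highest adjusted p of 0.0166 for Smad7. Of the probe sets 7 or 8 rose, the eighth being the dimmest of Tgfb2, which passed in 8 of 18 alternatives. Leaving out 1 animal at a time, 12 to 22 of the other pathway genes rose, 12 without young replicate 5, and 8 to 11 fell. Without the replacement arrays, the differences in change were 1.37 for Tgfb1 against Tgfb3, 1.19 for Tgfb2 against Tgfb3, 2.37 for Ltbp1 against Ltbp2 and 1.37 for Tgfb1 against Ctgf, each at an adjusted p of 0.0625 in the exact permutation test, where fewer animals cannot give a smaller p. With the mean over probe sets, Tgfb1 against Tgfb2 was 0.50 and passed. No shared deviation of same-numbered animals was seen, with r between -0.12 and 0.03, and 0 of 5 young animals correlated best with their own number. Such correlations cannot show how the animals were numbered. With a replicate block 7 probe sets rose and 1 fell, and of the other pathway genes 15 rose and 10 fell. Under quantile normalization 15 of these rose and 13 fell, against 19 and 10. Intensities near the array medians limit what can be said of the dim probe sets of Smad7, Tgfbr1 and Tgfb2.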
